A study of Homo sapiens with 14 samples.

Results

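The 42 genes described here encode proteins that carry a human cell through mitosis: spindle checkpoint proteins, polo and Aurora kinases, CDK1 with its cyclins and phosphatases, regulators of anaphase onset, kinetochore proteins, kinesin motors, and spindle and cytokinesis factors. The rule is a list of symbols drawn up from this known function, with earlier results of these data known, and the symbols were matched to the Ensembl gene identifiers of the deposited read count table. Of the 42, 40 are in the table of 18006 genes, and ESPL1 and MKI67 were not analysed here. All 40 passed the filter on low counts that left 12080 genes for testing, so they are 0.331% of the tested genes, and no member was lost through the filter. The cells were HEK 293, an established line from human embryonic kidney, and RNA was sequenced in 14 libraries of 5 groups: CFIm25 knockdown (n = 2), CFIm68 knockdown (n = 3), CFIm25 overexpression (n = 3), CFIm68 overexpression (n = 3) and wild-type control (n = 3). NUDT21 is the gene for CFIm25 and CPSF6 the gene for CFIm68, both part of cleavage factor I, a complex that binds pre-mRNA upstream of polyadenylation sites and takes part in choosing where the 3′ end is cut. Knockdown was by siRNA delivered with Lipofectamine RNAiMAX. The labels do not say how overexpression was achieved, for how long any treatment lasted, or whether control cells were given any siRNA or vector. They do not say either whether replicates were grown as separate cultures, and the p-values therefore reflect the spread between these libraries alone, which may be technical.

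As background, CDK1 bound to cyclin B drives cells into mitosis. The spindle checkpoint then holds the CDC20-bound anaphase-promoting complex inactive until every kinetochore is attached to microtubules. After that the complex marks securin and cyclin B for destruction, chromatids separate, and kinesins and actin regulators finish division. Transcripts of most of these genes peak late in the cell cycle. Their promoters are known for the cell cycle homology region, a short element bound by the DREAM and MYB-MuvB complexes, and for CCAAT boxes bound by NF-Y.

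Promoter windows from RefSeq (GRCh38.p14, 250 bases before to 50 after the start) were found for 33 of the 40 members, 45 windows in all, and 5 are printed. BUB1, KIF20A and PLK1 had the smallest adjusted p among the members that fell in CFIm25 overexpression, NDC80 had the smallest of those that rose there, and MAD2L1 moved in opposite directions in the knockdowns. Capitals mark TTTGAA or TTCGAA, the letters searched for the cell cycle homology region, and CCAAT, each on either strand, so TTCAAA and ATTGG are the reverse complements. The windows are chr2:110678014-110678313 on the minus strand for BUB1, chr5:138178862-138179161 on the plus strand for KIF20A, chr16:23678639-23678938 on the plus strand for PLK1, chr18:2571307-2571606 on the plus strand for NDC80 and chr4:120066799-120067098 on the minus strand for MAD2L1.
BUB1: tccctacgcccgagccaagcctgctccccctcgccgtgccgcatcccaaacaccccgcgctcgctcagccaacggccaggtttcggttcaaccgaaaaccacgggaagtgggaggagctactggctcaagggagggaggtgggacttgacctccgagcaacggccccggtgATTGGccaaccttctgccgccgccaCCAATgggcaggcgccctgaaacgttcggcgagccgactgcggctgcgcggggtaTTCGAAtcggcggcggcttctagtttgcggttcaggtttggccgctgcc
KIF20A: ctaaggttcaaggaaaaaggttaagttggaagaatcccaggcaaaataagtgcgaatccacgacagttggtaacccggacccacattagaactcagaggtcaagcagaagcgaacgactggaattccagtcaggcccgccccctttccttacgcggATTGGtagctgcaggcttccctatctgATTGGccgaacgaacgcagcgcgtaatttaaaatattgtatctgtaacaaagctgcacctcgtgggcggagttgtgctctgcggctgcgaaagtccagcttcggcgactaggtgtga
PLK1: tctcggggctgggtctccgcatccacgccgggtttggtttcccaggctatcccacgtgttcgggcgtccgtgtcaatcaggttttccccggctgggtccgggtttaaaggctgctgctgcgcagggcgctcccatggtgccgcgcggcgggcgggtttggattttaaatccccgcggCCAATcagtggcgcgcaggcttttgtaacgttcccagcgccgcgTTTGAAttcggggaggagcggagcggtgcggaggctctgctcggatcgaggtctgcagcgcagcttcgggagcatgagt
NDC80: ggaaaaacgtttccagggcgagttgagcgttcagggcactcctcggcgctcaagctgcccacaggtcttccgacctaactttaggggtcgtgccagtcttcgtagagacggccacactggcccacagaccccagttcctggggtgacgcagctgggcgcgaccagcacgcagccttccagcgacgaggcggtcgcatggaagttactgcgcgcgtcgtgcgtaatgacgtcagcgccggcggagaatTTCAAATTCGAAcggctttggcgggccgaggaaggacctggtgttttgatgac
MAD2L1: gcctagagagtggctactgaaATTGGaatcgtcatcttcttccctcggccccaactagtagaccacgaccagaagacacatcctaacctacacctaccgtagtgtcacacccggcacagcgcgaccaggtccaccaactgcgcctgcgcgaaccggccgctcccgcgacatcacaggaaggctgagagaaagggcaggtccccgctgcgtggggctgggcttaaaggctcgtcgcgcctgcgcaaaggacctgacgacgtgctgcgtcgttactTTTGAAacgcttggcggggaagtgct
The BUB1, PLK1 and MAD2L1 windows hold both motifs. The KIF20A window holds a pair of CCAAT matches and no match to the other motif, whereas NDC80 holds 2 adjacent matches to the cell cycle motif and no CCAAT.

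Over all 45 windows of the members, 64.4% held TTTGAA or TTCGAA, against 16.4% of 35116 promoter windows and 11.7% of the 14215 windows of tested genes. CCAAT was in 71.1% of the members' windows, against 34.6% of all windows and 34.4% of those of tested genes. Both motifs together were in 51.1%, against 6.38% and 4.7%. TTTGAA alone was in 60% of the members' windows and TTCGAA in 6.67%. Within the members' windows, the median first base was 23 bases before the start for the cell cycle motif and 86 bases before it for CCAAT, as the plot of match positions shows. The window itself limits how far from the start a match can lie, and match positions in other genes' windows were not computed. Whether the matches lie nearer the start than in other genes was therefore not tested. Of the 21 members with a window that were lower in CFIm25 overexpression, 16 (76.2%) held the cell cycle motif and 17 (81%) held CCAAT, against 10 of 12 (83.3%) for each motif among the remaining members. Both motifs were held by 14 of 21 (66.7%), against 7 of 12 (58.3%) of the remaining members, and none of these differences was tested. Windows of 1 gene can overlap, so they are not independent, and the same site can be counted in several of them. A match describes these letters in this window and is not evidence of binding.

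**Figure D1:**
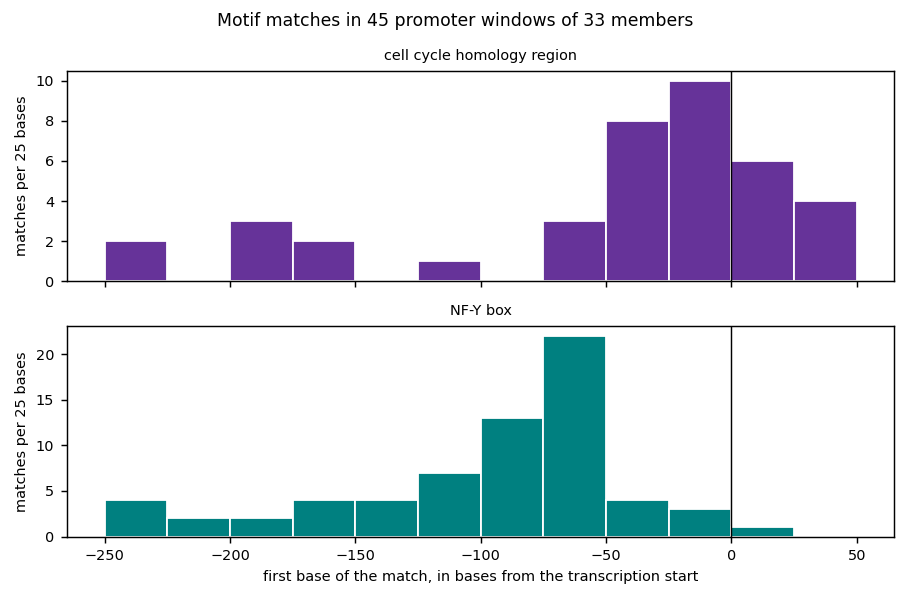
Number of motif matches per 25 bases (y axis) by the position of their first base from the transcription start (x axis, bases), over 45 promoter windows of 33 members, with the cell cycle homology region above and the NF-Y box below. Matches to the NF-Y box have their median 86 bases before the start and those to the cell cycle homology region 23 bases before it.

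The sequencing depth, as total counts per library, was 22464083 to 33895308 for the CFIm25 knockdown, 24119597 to 28963694 for the CFIm68 knockdown, 16437307 to 23125253 for CFIm25 overexpression, 15822467 to 18297610 for CFIm68 overexpression and 17734490 to 18385536 for control. The lowest count of any member in any library was 147. The members with the fewest counts, BIRC5 and CENPA, had the largest SEs of the log2 change, 0.09 to 0.10. The targeted transcripts matched the labels: NUDT21 had 53.8 ± 1.2 CPM (each gene's counts relative to the library total, adjusted by TMM factors; SD, n = 2) in CFIm25 knockdown and 729 ± 55.6 (n = 3) in CFIm25 overexpression, against 514 ± 19.6 (n = 3) in control. CPSF6 had 41.6 ± 0.996 CPM in CFIm68 knockdown and 730.2 ± 17.4 in CFIm68 overexpression, against 268 ± 5.78 in control (n = 3 each). NUDT21 was also lower in CFIm68 knockdown (232 ± 9.27 CPM), and CPSF6 higher in CFIm25 knockdown (533 ± 10.2 CPM, n = 2). With CFIm68 overexpressed NUDT21 was higher too (597 ± 47.9 CPM, log2 change 0.22 ± 0.06, edgeR adjusted p = 0.0049). Its log2 change in CFIm25 overexpression was 0.50 ± 0.06. CPSF6 in CFIm25 overexpression did not pass (252 ± 13.3 CPM). All 7 genes of a list of HEK 293 markers had counts in every group, led by NEFL. Blood cell markers summed to 0.202 to 2.07 CPM per library over 6 genes, with PTPRC and HBB at 0, and keratinocyte markers to 2.39 to 14.3 CPM over 5, nearly all KRT17. Mesenchymal markers summed to 57.1 to 60.9 CPM in CFIm25 knockdown, 67.9 to 71.3 CPM in CFIm68 knockdown, 47.9 to 54.7 CPM with CFIm25 overexpressed and 25.7 to 29.6 CPM with CFIm68 overexpressed, against 52.3 to 56.9 CPM in control, nearly all COL1A1, with COL1A2 and DCN at 0. The part of KRT17 or COL1A1 expression in the results below was not tested.

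Levels of the members spanned a wide range. Per kilobase of exon, TOP2A, the DNA topoisomerase that untangles sister chromatids, was the highest at 316 ± 11.9 CPM per kb in control (SD, n = 3), followed by CDC20 (149 ± 10.9), PRC1 (139 ± 4.1) and CCNB1 (133 ± 7.22). The difference between CDC20 and PRC1 was smaller than the SD of CDC20, and that between PRC1 and CCNB1 smaller than the SD of CCNB1. BIRC5 was the lowest at 3.42 ± 0.289 CPM per kb and CENPA the next at 6.46 ± 0.347. Summed over the 40 members, the libraries held 10539 and 10638 CPM in CFIm25 knockdown, 10577 to 10642 in CFIm68 knockdown, 9124 to 10160 with CFIm25 overexpressed, 10116 to 10673 with CFIm68 overexpressed and 10655 to 10859 in control. Every CFIm25 overexpression library was below every control library in this sum, and CFIm68 overexpression overlapped control. The knockdown libraries were also below control, but barely, with highest values of 10638 and 10642 CPM against a lowest control of 10655. As a share of raw counts, CFIm68 knockdown (1.07 to 1.08%) overlapped control (1.05 to 1.08%). In bulk RNA, fewer cells in mitosis and less mitotic RNA per cell cannot be told apart.

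In CFIm25 overexpression nearly all members that were called fell. Of the 40, 24 fell, 2 rose and 14 did not pass the threshold (edgeR's quasi-likelihood test, Benjamini-Hochberg adjusted p under 0.05 over all 12080 genes). Members called lower were 60% of the 40, where 29.1% of all tested genes were called lower, and members called higher were 5%, where 27.7% of all tested genes were called higher. In either direction the share was 65%, against 56.7% of all tested genes. The median log2 change of the members was -0.17, against 0.00 over all tested genes. Leading the falls were the checkpoint kinase BUB1 (log2 change -0.94 ± 0.05, SE), the kinesin KIF20A (-0.81 ± 0.06), the polo-like kinase PLK1 (-0.75 ± 0.05), the cytokinesis scaffold ANLN (-0.68 ± 0.05) and the cyclin CCNB1 (-0.62 ± 0.05). The count of members lower was between 20 and 24 when any 1 library of the comparison was left out. In a fit to CFIm25 overexpression and control alone it was 20.

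Overexpression of CFIm68 moved fewer of them and by less. Against control, 9 members fell, 1 rose and 30 did not pass, with log2 changes of -0.33 to 0.18 and a median of -0.04. The share called was 25% in either direction, against 29.8% of all tested genes. Called lower were 22.5% of the members and 15.4% of all tested genes, and called higher 2.5% and 14.5%. Both comparisons use the same 3 control libraries. Set directly against CFIm25 overexpression, CFIm68 overexpression had 22 members higher and 5 lower, while 13 did not pass, and the median was 0.17. Members called higher were 55%, against 32.9% of all tested genes, those called lower 12.5%, against 30.8%, and those called in either direction 67.5%, against 63.7%.

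**Figure D2:**
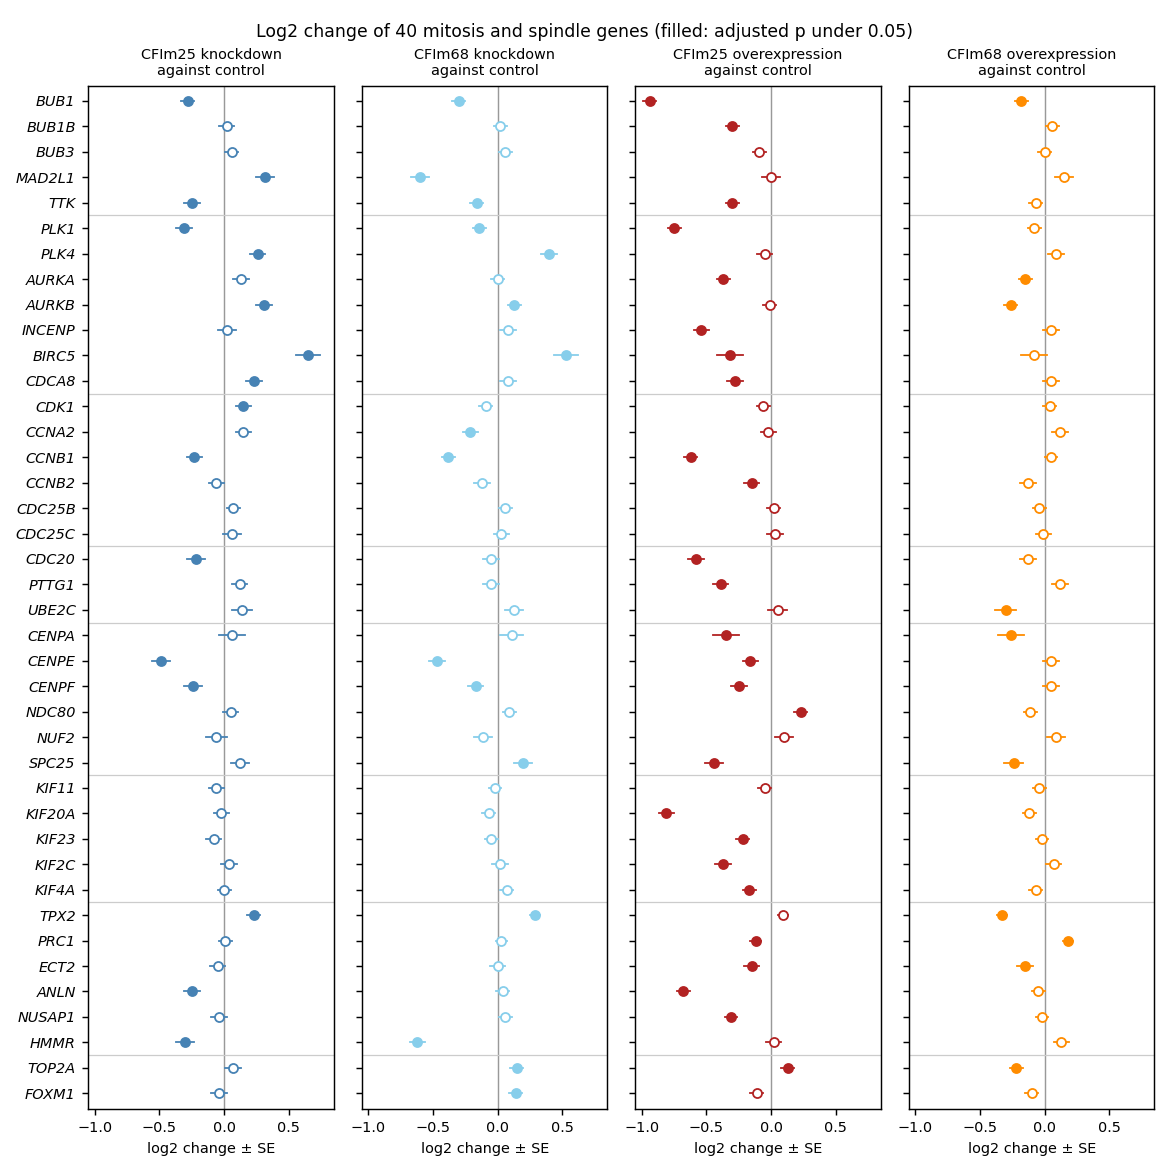
Log2 change ± SE (x axis) of the 40 members (rows, grouped by role with grey lines between roles) in CFIm25 knockdown, CFIm68 knockdown, CFIm25 overexpression and CFIm68 overexpression, each against control; filled points passed an adjusted p of 0.05. In CFIm25 overexpression 24 filled points lie left of 0 and 2 right of it, and in CFIm68 overexpression 9 and 1.

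Among the 5 checkpoint genes, 3 fell in CFIm25 overexpression. BUB1 (ENSG00000169679, chromosome 2, 110637698 to 110678114, minus strand; coordinates here are GENCODE 29 on hg38), a kinetochore kinase needed for checkpoint signalling, had 123, 123 and 116 CPM in CFIm25 overexpression and 207, 203 and 202 CPM in CFIm68 overexpression, against 239, 228 and 225 CPM in control. The 3 groups did not overlap, and CFIm25 overexpression was the lowest (edgeR adjusted p = 3.8e-15 against control). BUB1 in CFIm68 overexpression (-0.18 ± 0.05, edgeR adjusted p = 0.0064) fell by no more than the median of its 50 nearest tested genes on the chromosome, which was also -0.18. BUB1B, whose product BubR1 binds CDC20 in the checkpoint complex (-0.30 ± 0.05), and the kinase gene TTK (-0.30 ± 0.05) also fell in CFIm25 overexpression. BUB3, the WD-repeat partner of BUB1 and BubR1, and MAD2L1, which encodes the CDC20 inhibitor MAD2, did not pass there (-0.09 ± 0.05 and 0.00 ± 0.07). BUB1B shares exonic bases with the readthrough gene BUB1B-PAK6 on the same strand, so its counts are less certain.

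Of the 7 genes of polo and Aurora kinases and the chromosomal passenger complex, 5 fell and 0 rose in CFIm25 overexpression. PLK1 (ENSG00000166851, chromosome 16, 23677656 to 23690367, plus strand), the kinase of mitotic entry and spindle assembly, had 156, 170.4 and 158 CPM in CFIm25 overexpression and 257, 257 and 259 CPM in CFIm68 overexpression, against 267, 258 and 290.2 CPM in control. Every CFIm25 overexpression library was below every other library of these groups (edgeR adjusted p = 1.7e-12 against control), while CFIm68 overexpression overlapped control (-0.08 ± 0.05). The passenger scaffold INCENP (-0.54 ± 0.06), the centrosomal kinase AURKA (-0.37 ± 0.05), BIRC5, which encodes survivin (-0.32 ± 0.10), and CDCA8, which encodes borealin (-0.28 ± 0.06), fell with it. AURKB, the enzyme of the same passenger complex, did not pass (-0.01 ± 0.05), nor did PLK4, the kinase of centriole duplication (-0.05 ± 0.06). AURKB behaved otherwise with CFIm68: it had 170, 177 and 181 CPM in CFIm68 overexpression and 204, 217 and 204 CPM in CFIm25 overexpression, against 198, 206 and 226 CPM in control. AURKB fell there (-0.26 ± 0.05, edgeR adjusted p = 0.00053), AURKA fell slightly (-0.15 ± 0.05), and INCENP and CDCA8 both stood at 0.05 ± 0.06, which did not pass. CDCA8 had 56.4, 58.3 and 52.1 CPM in CFIm25 overexpression, against 65.6, 65.8 and 70.8 CPM in control, with no overlap.

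CDK1 and its cyclins split. CCNB1 (ENSG00000134057, chromosome 5, 69167010 to 69178245, plus strand), the B-type cyclin of mitotic entry, had 226, 232 and 205 CPM in CFIm25 overexpression and 369.6, 351 and 337 CPM in CFIm68 overexpression, against 339, 322 and 359 CPM in control. CFIm25 overexpression lay below the other groups without overlap (edgeR adjusted p = 1.3e-10 against control). CCNB2 fell slightly (-0.15 ± 0.06), a call lost without CFIm25 overexpression replicate 3, without control replicate 3 and with neighbouring genes removed (-0.05). The kinase gene CDK1 (-0.06 ± 0.05), CCNA2 (-0.02 ± 0.06) and the phosphatase genes CDC25B (0.02 ± 0.05) and CDC25C (0.03 ± 0.06) did not pass. In CFIm68 overexpression 0 of the 6 were called by edgeR, DESeq2 or limma-voom, and 2, CCNA2 and CCNB2, had an unadjusted p under 0.05. CCNB2 was called lower there with a replicate block, with neighbouring genes removed (-0.20) and without CFIm68 overexpression replicate 1. CDC25B was called lower with neighbouring genes removed (-0.13), and CCNA2 higher without CFIm68 overexpression replicate 3.

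The anaphase genes CDC20 and PTTG1 fell in CFIm25 overexpression. CDC20 (ENSG00000117399, chromosome 1, 43358955 to 43363203, plus strand), the activator of the anaphase-promoting complex, had 195, 223 and 189.6 CPM in CFIm25 overexpression and 276, 271 and 283 CPM in CFIm68 overexpression, against 295, 286 and 328 CPM in control (-0.58 ± 0.06 for CFIm25 overexpression, edgeR adjusted p = 3.8e-09). PTTG1, which encodes securin, changed by -0.39 ± 0.06. UBE2C, the ubiquitin-conjugating enzyme of the same complex, did not pass in CFIm25 overexpression (0.05 ± 0.07), where its 50 nearest tested genes had a median of 0.34, and was called lower with that removed (-0.28). UBE2C had 62.6, 53.3 and 52.3 CPM in CFIm68 overexpression and 63.7, 76.3 and 74.4 CPM in CFIm25 overexpression, against 63.5, 69.8 and 73.2 CPM in control. It fell in CFIm68 overexpression (-0.30 ± 0.08, edgeR adjusted p = 0.0037), a call lost with neighbouring genes removed (-0.12).

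Kinetochore genes moved both ways. NDC80 (ENSG00000080986, chromosome 18, 2571511 to 2616635, plus strand), the microtubule-binding subunit of the NDC80 complex, had 155, 149.6 and 153 CPM in CFIm25 overexpression and 127, 117 and 119 CPM in CFIm68 overexpression, against 127, 126 and 138 CPM in control. It rose in CFIm25 overexpression without overlap (0.23 ± 0.05, edgeR adjusted p = 0.00053). SPC25, another subunit of the same complex, had 39.8, 38.8 and 35.6 CPM in CFIm25 overexpression and 44.9, 45.6 and 40.5 CPM in CFIm68 overexpression, against 51.2, 49.6 and 54.2 CPM in control. SPC25 fell in both (-0.44 ± 0.07 and -0.24 ± 0.07), without overlap with control, and NUF2, the partner of NDC80, did not pass in either (0.10 ± 0.07 and 0.09 ± 0.07). CENPA, the centromeric histone variant (-0.35 ± 0.10), CENPF (-0.25 ± 0.06) and the kinetochore motor CENPE (-0.16 ± 0.06) fell in CFIm25 overexpression. CENPF and CENPE overlapped control. The call of CENPE was lost with neighbouring genes removed (-0.10) and in a fit to the compared groups alone. It was also lost without any 1 of 4 libraries: CFIm25 overexpression replicate 2 or 3, or control replicate 1 or 2. CENPA shares exonic bases with SLC35F6 on the same strand.

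The kinesin motors fell with 1 exception. KIF20A (ENSG00000112984, chromosome 5, 138178719 to 138187715, plus strand), the motor that carries the passenger complex to the central spindle, had 147, 158 and 134 CPM in CFIm25 overexpression and 240.5, 238 and 230 CPM in CFIm68 overexpression, against 258, 248 and 264 CPM in control. CFIm25 overexpression was far below both other groups (edgeR adjusted p = 9.1e-13 against control). The depolymerase gene KIF2C (-0.37 ± 0.06), the centralspindlin motor KIF23 (-0.22 ± 0.05) and the chromokinesin KIF4A (-0.17 ± 0.05) also fell, and KIF11, the motor that separates spindle poles, did not pass (-0.05 ± 0.05). In CFIm68 overexpression 0 of the 5 were called by edgeR, DESeq2 or limma-voom, and KIF20A alone had an unadjusted p under 0.05. With neighbouring genes removed, KIF20A (-0.19) and KIF23 (-0.15) were called lower there. Set directly against CFIm25 overexpression, CFIm68 overexpression was higher for KIF20A (0.69 ± 0.06), KIF2C (0.44 ± 0.06) and KIF23 (0.20 ± 0.05). KIF20A shares bases with BRD8 and CDC23 on the opposite strand.

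Among spindle and cytokinesis factors, ANLN (ENSG00000011426, chromosome 7, 36389806 to 36453791, plus strand), which encodes the cleavage furrow scaffold anillin, had 152, 143 and 130.4 CPM in CFIm25 overexpression and 221, 222 and 213 CPM in CFIm68 overexpression, against 231, 226 and 224 CPM in control (edgeR adjusted p = 2.5e-11 for CFIm25 overexpression against control). Again CFIm25 overexpression stood alone at the bottom. NUSAP1, a microtubule-bundling protein gene, fell by 0.31 ± 0.05 on the log2 scale, ECT2, which encodes the RhoA activator of cytokinesis, changed by -0.15 ± 0.06, and HMMR did not pass (0.02 ± 0.06). ECT2 overlapped control and was not called without any 1 of 4 libraries (CFIm25 overexpression replicate 2 or 3, control replicate 1 or 2). Nor was ECT2 called in a fit to the compared groups alone. NUSAP1 overlaps AC087721.2 in exonic bases on its own strand.

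PRC1, TOP2A and TPX2 behaved differently in the overexpression groups. PRC1, the crosslinker of antiparallel microtubules in the midzone, had 881, 863 and 855 CPM in CFIm68 overexpression and 712, 727 and 676 CPM in CFIm25 overexpression, against 739, 780.1 and 777 CPM in control. It rose in CFIm68 overexpression (0.18 ± 0.04, edgeR adjusted p = 0.0028) and fell in CFIm25 overexpression (-0.12 ± 0.04, edgeR adjusted p = 0.024), with no overlap among the 3 groups. TOP2A had 1839, 1729 and 1662 CPM in CFIm68 overexpression and 2373, 2229 and 2079 CPM in CFIm25 overexpression, against 2099, 2054 and 1950.3 CPM in control. TOP2A fell in CFIm68 overexpression (-0.22 ± 0.05, edgeR adjusted p = 0.0012) and rose in CFIm25 overexpression (0.13 ± 0.05, edgeR adjusted p = 0.027), where it overlapped control. TPX2, the microtubule factor that activates Aurora A, had 310.2, 297 and 293 CPM in CFIm68 overexpression and 411, 405 and 392 CPM in CFIm25 overexpression, against 374, 374 and 384 CPM in control. TPX2 fell in CFIm68 overexpression (-0.33 ± 0.04, edgeR adjusted p = 2e-06) and did not pass in CFIm25 overexpression (0.09 ± 0.04), where it turned to -0.15 with the neighbouring median of 0.25 removed. The direct difference of TPX2, CFIm68 minus CFIm25 overexpression, was -0.43 ± 0.04 and 0.00 with neighbouring medians removed. FOXM1, the transcription factor that activates many of these genes, missed the threshold with CFIm25 overexpressed (-0.11 ± 0.05) and with CFIm68 overexpressed (-0.10 ± 0.05). PRC1 overlaps AC068831.7 on its own strand and PRC1-AS1 on the opposite strand. The rise of TOP2A in CFIm25 overexpression was not called without CFIm25 overexpression replicate 1, without control replicate 3 or with neighbouring genes removed (0.01). The fall of PRC1 there was not called without CFIm25 overexpression replicate 3, without control replicate 2 or 3, or in a fit to the compared groups alone.

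**Figure D3:**
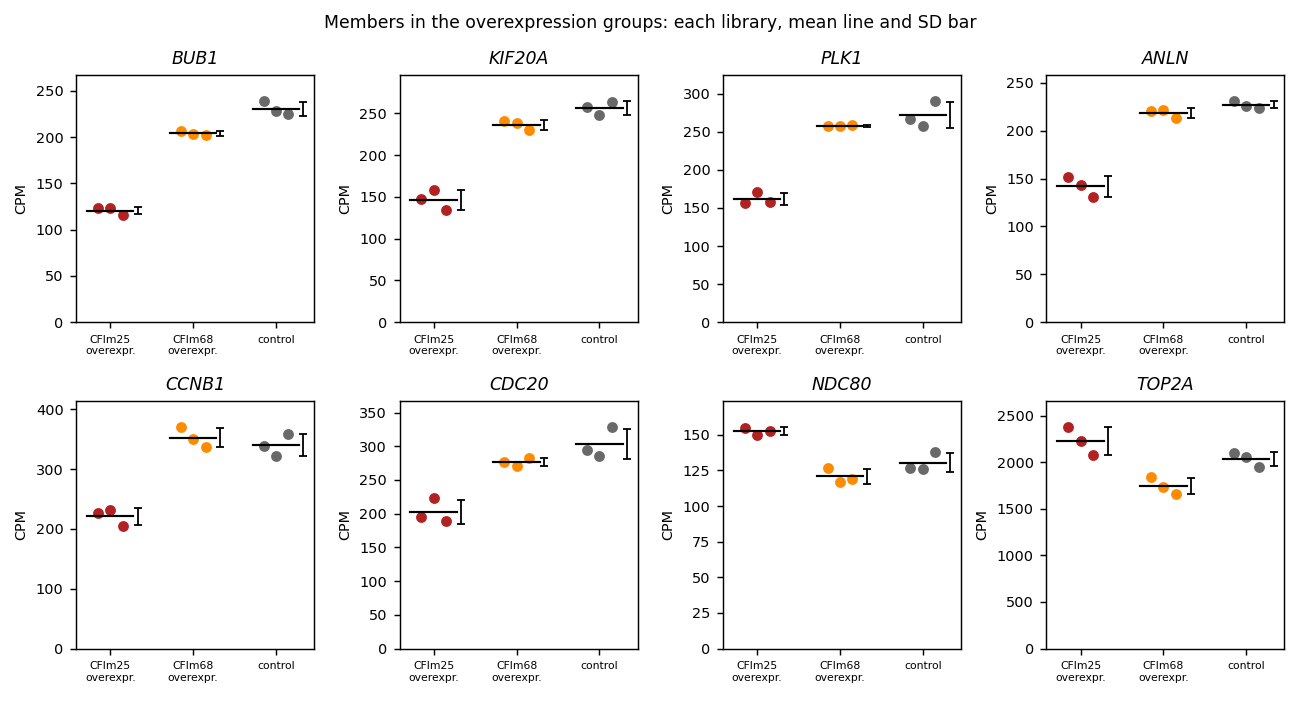
CPM (y axis, from 0) of 8 members in CFIm25 overexpression, CFIm68 overexpression and control; points are libraries, horizontal lines group means and bars SDs (n = 3 each). BUB1 averages 120.4 CPM in CFIm25 overexpression and 204 CPM in CFIm68 overexpression, against 231 CPM in control, and NDC80 and TOP2A are highest in CFIm25 overexpression.

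Knockdown moved the members in both directions and by small amounts. In CFIm25 knockdown 7 members rose, 9 fell and 24 did not pass (edgeR adjusted p under 0.05), with a median log2 change of 0.02. The share called was 40%, below the 47.6% of all tested genes, with 17.5% higher against 24.4% and 22.5% lower against 23.2%. CFIm68 knockdown gave the same counts of 7, 9 and 24 and a median of 0.02. There 40% of the members were called, against 56.4% of all tested genes, with 17.5% higher against 28.3% and 22.5% lower against 28.1%. The knockdowns share their control libraries, so their values for the members are given side by side. In the direct comparison, CFIm68 knockdown against CFIm25 knockdown, 3 members were higher, 6 lower and 31 not past: 22.5% called against 24.2% of all tested genes, 7.5% higher against 11.1% and 15% lower against 13.2%. With CFIm25 knockdown replicate 1 left out, 2 members were called there, and without CFIm68 knockdown replicate 3, 5 were.

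MAD2L1 (ENSG00000164109, chromosome 4, 120055608 to 120067074, minus strand) was the member with opposite calls in the knockdowns. It had 285 and 251 CPM in CFIm25 knockdown and 149.9, 135 and 140 CPM in CFIm68 knockdown, against 225, 201 and 219 CPM in control. The 3 groups did not overlap: CFIm25 knockdown was the highest and CFIm68 knockdown the lowest. The rise in CFIm25 knockdown was 0.32 ± 0.07 (edgeR adjusted p = 0.00077), and was not called without CFIm25 knockdown replicate 1. The fall in CFIm68 knockdown was -0.60 ± 0.07 (edgeR adjusted p = 1.3e-08), and the direct difference, CFIm68 minus CFIm25 knockdown, was -0.92 ± 0.07 (edgeR adjusted p = 1.5e-10). Its 50 nearest tested genes had medians of 0.01 and -0.03 in the knockdowns. MAD2L1 has the second longest annotated 3′ UTR of the members, 4513 bases, after BUB3 with 6635, while the median of the members was 802.5 bases, against 1597 over 11925 tested protein-coding genes. Counts per gene do not show which 3′ end was used.

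Of the other checkpoint genes, BUB1 and TTK fell in each knockdown, and BUB1B (0.02 in both) and BUB3 (0.06 in both) did not pass. BUB1 had 185 and 194 CPM in CFIm25 knockdown and 192, 182 and 189 CPM in CFIm68 knockdown, against 239, 228 and 225 CPM in control (-0.28 ± 0.05 and -0.30 ± 0.05). BUB1 was thus lower in each of the 4 comparisons with control, which share the same control libraries. TTK fell with CFIm25 depleted (-0.25 ± 0.06) and with CFIm68 depleted (-0.16 ± 0.05), and the smaller fall was not called without CFIm68 knockdown replicate 2.

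Genes of the passenger complex rose or were not called. BIRC5 (ENSG00000089685, chromosome 17, 78214186 to 78225636, plus strand) had 21 and 19.9 CPM in CFIm25 knockdown and 20.2, 17.7 and 18.3 CPM in CFIm68 knockdown, against 14.1, 13.1 and 11.9 CPM in control. Both knockdowns lay above control (0.65 ± 0.09, edgeR adjusted p = 2.8e-06, and 0.53 ± 0.09, edgeR adjusted p = 9.4e-06), whereas BIRC5 fell in CFIm25 overexpression, where it had 9.91, 10.9 and 10.7 CPM; that fall was not called with neighbouring genes removed (-0.13). AURKB had 264 and 258 CPM in CFIm25 knockdown and 221, 238 and 233 CPM in CFIm68 knockdown, against 198, 206 and 226 CPM in control. It rose clearly in CFIm25 knockdown (0.31 ± 0.06, edgeR adjusted p = 7e-05), while in CFIm68 knockdown it overlapped control (0.13 ± 0.05, edgeR adjusted p = 0.033) and was not called without any 1 of 4 libraries: CFIm68 knockdown replicate 2 or 3, or control replicate 1 or 2. With neighbouring genes removed the value there was 0.02. CDCA8 had 79.2 and 79.4 CPM in CFIm25 knockdown and 70.6, 69.6 and 73.1 CPM in CFIm68 knockdown, against 65.6, 65.8 and 70.8 CPM in control. It rose in CFIm25 knockdown (0.23 ± 0.06) and did not pass in CFIm68 knockdown (0.08 ± 0.06). PLK4 had 108 and 106 CPM in CFIm25 knockdown and 118, 115 and 121 CPM in CFIm68 knockdown, against 88.7, 91.9 and 87.5 CPM in control (0.26 ± 0.06 and 0.40 ± 0.06), with no overlap. PLK1 went the other way, with 211 and 228 CPM in CFIm25 knockdown and 246, 250.4 and 242 CPM in CFIm68 knockdown, against 267, 258 and 290.2 CPM in control (-0.31 ± 0.06 and -0.14 ± 0.05); the smaller fall was not called without CFIm68 knockdown replicate 3 or control replicate 3, or with neighbouring genes removed (-0.06).

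Among motors and spindle factors, CENPE (ENSG00000138778, chromosome 4, 103105806 to 103198409, minus strand), a kinesin that moves chromosomes to the spindle equator, had 241 and 223 CPM in CFIm25 knockdown and 237, 236 and 233 CPM in CFIm68 knockdown, against 346, 337 and 295 CPM in control (-0.49 ± 0.07 and -0.47 ± 0.06). Both knockdowns were below every control library (edgeR adjusted p = 2.7e-06 for CFIm25 and 4e-07 for CFIm68). HMMR (ENSG00000072571, chromosome 5, 163460203 to 163491945, plus strand), which encodes a hyaluronan receptor that also binds spindle microtubules, had 125 and 109.7 CPM in CFIm25 knockdown and 101, 90.2 and 92.5 CPM in CFIm68 knockdown, against 149, 148 and 138 CPM in control. HMMR fell by more in CFIm68 knockdown (-0.62 ± 0.06, edgeR adjusted p = 3.5e-09) than in CFIm25 knockdown (-0.30 ± 0.07, edgeR adjusted p = 0.00084), and the direct difference of -0.31 ± 0.07 passed (edgeR adjusted p = 0.0015), though not without CFIm25 knockdown replicate 1. The fall in CFIm25 knockdown was not called without CFIm25 knockdown replicate 2. TPX2 had 443 and 445 CPM in CFIm25 knockdown and 456, 458 and 468 CPM in CFIm68 knockdown, against 374, 374 and 384 CPM in control (0.23 ± 0.05 and 0.29 ± 0.04). TPX2 lies on chromosome 20, where its 50 nearest tested genes had medians of 0.27 and 0.22, and neither rise was called with those removed (0.02 and 0.10). SPC25 had 59.9 and 52.9 CPM in CFIm25 knockdown and 62.3, 58.9 and 57 CPM in CFIm68 knockdown, against 51.2, 49.6 and 54.2 CPM in control; it rose in CFIm68 knockdown (0.20 ± 0.07), a call lost without CFIm68 knockdown replicate 1 or control replicate 2. Of the 5 kinesin genes other than CENPE, 0 were called by edgeR, DESeq2 or limma-voom in either knockdown, and 0 had an unadjusted p under 0.05. With neighbouring genes removed, KIF23 was called lower in CFIm25 knockdown (-0.17) and in CFIm68 knockdown (-0.12).

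Of the cyclins, CCNA2 differed between the knockdowns in the direct test, and CCNB1 and CCNB2 did not pass it. CCNB1 had 282 and 297 CPM in CFIm25 knockdown and 264, 258 and 262 CPM in CFIm68 knockdown, against 339, 322 and 359 CPM in control, a fall of both without overlap (-0.23 ± 0.06 and -0.38 ± 0.05). The direct difference of CCNB1, CFIm68 minus CFIm25 knockdown, was -0.15 ± 0.06 (edgeR adjusted p = 0.066), and that of CCNB2 was -0.06 ± 0.06. CCNA2, the cyclin of S phase and early mitosis, had 250 and 244 CPM in CFIm25 knockdown and 197, 191 and 189 CPM in CFIm68 knockdown, against 227, 214 and 228 CPM in control. CCNA2 fell in CFIm68 knockdown (-0.21 ± 0.06). CFIm25 knockdown gave 0.15 ± 0.06, without overlap with control but not past the threshold (edgeR adjusted p = 0.054). CCNA2 was called higher there by limma-voom, with no filter, with a replicate block, in the compared groups alone and with neighbouring genes removed. The direct difference, CFIm68 minus CFIm25 knockdown, was -0.36 ± 0.06 (edgeR adjusted p = 7.8e-05). CDK1, with 268 and 249.9 CPM in CFIm25 knockdown and 226, 218 and 212 CPM in CFIm68 knockdown, against 228, 234 and 238 CPM in control, had the same order (direct difference -0.25 ± 0.06, edgeR adjusted p = 0.0027), a call lost without CFIm25 knockdown replicate 1. ANLN ran the other way, lower in CFIm25 knockdown (-0.25 ± 0.06) and not past in CFIm68 knockdown (0.04 ± 0.05), with a direct difference of 0.28 ± 0.06. Neither that difference nor the fall of ANLN was called without CFIm25 knockdown replicate 1.

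The remaining calls in the knockdowns were small. CDK1 rose in CFIm25 knockdown (0.15 ± 0.06), CDC20 fell there (-0.22 ± 0.07), and CENPF fell in both knockdowns (-0.24 ± 0.07 with CFIm25 and -0.17 ± 0.06 with CFIm68). TOP2A (0.15 ± 0.05) and FOXM1 (0.14 ± 0.05) rose in CFIm68 knockdown. Each of these 6 calls was lost without at least 1 library. The rise of CDK1 ended without CFIm25 knockdown replicate 1 or control replicate 1 or 2, and the fall of CDC20 without CFIm25 knockdown replicate 1 or control replicate 3. The falls of CENPF ended without CFIm25 knockdown replicate 2 in that group, and without control replicate 1 or 2 in CFIm68 knockdown. The rise of TOP2A ended without control replicate 3, and that of FOXM1 without CFIm68 knockdown replicate 3 or control replicate 1 or 2. With neighbouring genes removed, the rises of CDK1 (0.08), TOP2A (0.11) and FOXM1 (0.07) were not called either.

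**Figure D4:**
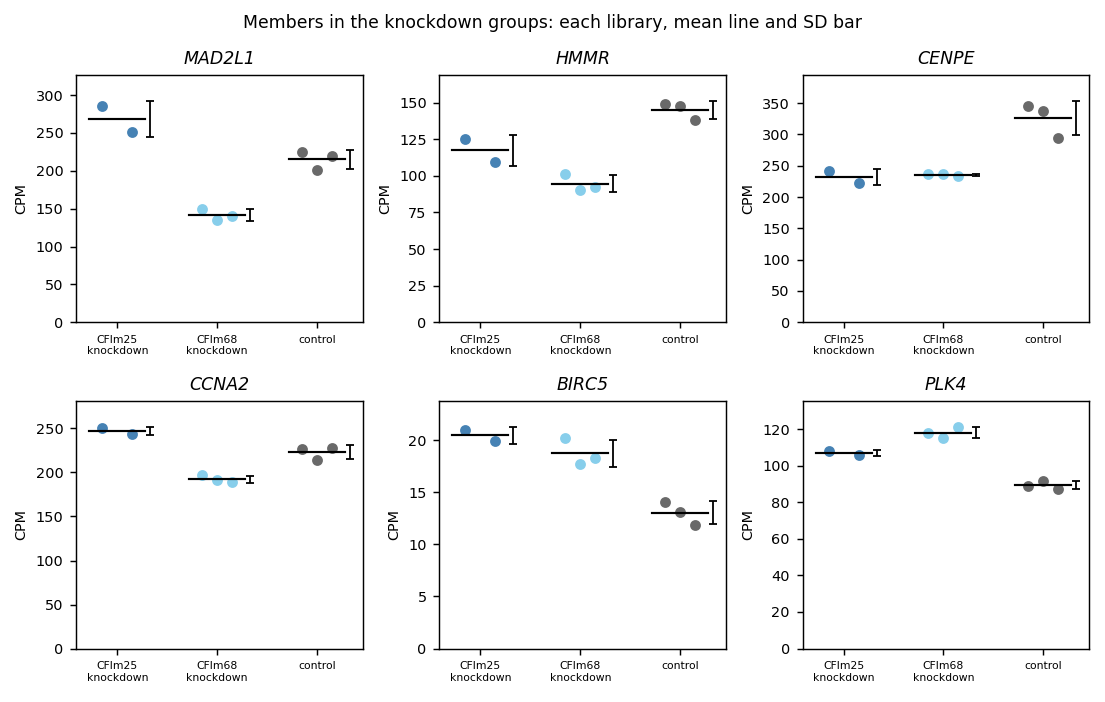
CPM (y axis, from 0) of 6 members in CFIm25 knockdown (n = 2), CFIm68 knockdown (n = 3) and control (n = 3); points are libraries, horizontal lines group means and bars SDs. MAD2L1 averages 268 CPM in CFIm25 knockdown and 142 CPM in CFIm68 knockdown, against 215 CPM in control, and BIRC5 and PLK4 are above control in both knockdowns.

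Across the 4 comparisons with control, 8 members were called in opposite directions in at least 1 pair of comparisons: MAD2L1, AURKB, BIRC5, CDCA8, SPC25, TPX2, TOP2A and PRC1. That is 20% of the members, against 29.7% of all tested genes. The members called in none were BUB3, CDC25B, CDC25C, NUF2 and KIF11, 12.5% of the members, against 14.4% of all tested genes. In CFIm68 overexpression the call of SPC25 was lost without CFIm68 overexpression replicate 3, that of AURKA without replicate 2 or 3 of that group or control replicate 1 or 3, that of CENPA without its replicate 1 or 2 or control replicate 1 or 3, and that of ECT2 without its replicate 2 or 3 or control replicate 1 or 2. CENPA was also not called there by DESeq2, with no filter or in a fit to the compared groups alone.

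Positions on the chromosomes moved with the groups. Medians over all tested genes of a chromosome differed from control on the log2 scale, for example by 0.20 in CFIm25 knockdown, 0.19 in CFIm68 knockdown, 0.29 in CFIm25 overexpression and -0.16 in CFIm68 overexpression for chromosome 3, and 0.11, 0.11, 0.20 and -0.10 in the same group order for chromosome 20. When the median of the 50 nearest tested genes was removed in every library, 22 of the 26 calls of members in CFIm25 overexpression held, 21 of them among the 24 that fell, against 73.8% of the calls of all tested genes. The falls of BUB1 (-0.65), KIF20A (-0.76), PLK1 (-0.78), ANLN (-0.71) and CCNB1 (-0.78) all passed on this scale. In CFIm68 overexpression 2 of 10 held, AURKB (-0.20) and TPX2 (-0.15), against 53.1% of all calls, and the calls of BUB1, AURKA, CENPA, SPC25, TOP2A, PRC1, ECT2 and UBE2C were lost. On the same scale 8 other members came to be called there, among them KIF20A (-0.19), CCNB2 (-0.20) and NDC80 (-0.23), and 5 others in CFIm25 overexpression. In the knockdowns 14 of 16 (CFIm25) and 11 of 16 (CFIm68) held, against 78.9% and 83.1% of all calls. There 4 other members came to be called in CFIm25 knockdown and 8 in CFIm68 knockdown. On this scale 7 members were higher and 11 lower in CFIm25 knockdown, and 6 higher and 13 lower in CFIm68 knockdown. The cause of these chromosome-wide shifts was not tested.

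**Figure D5:**
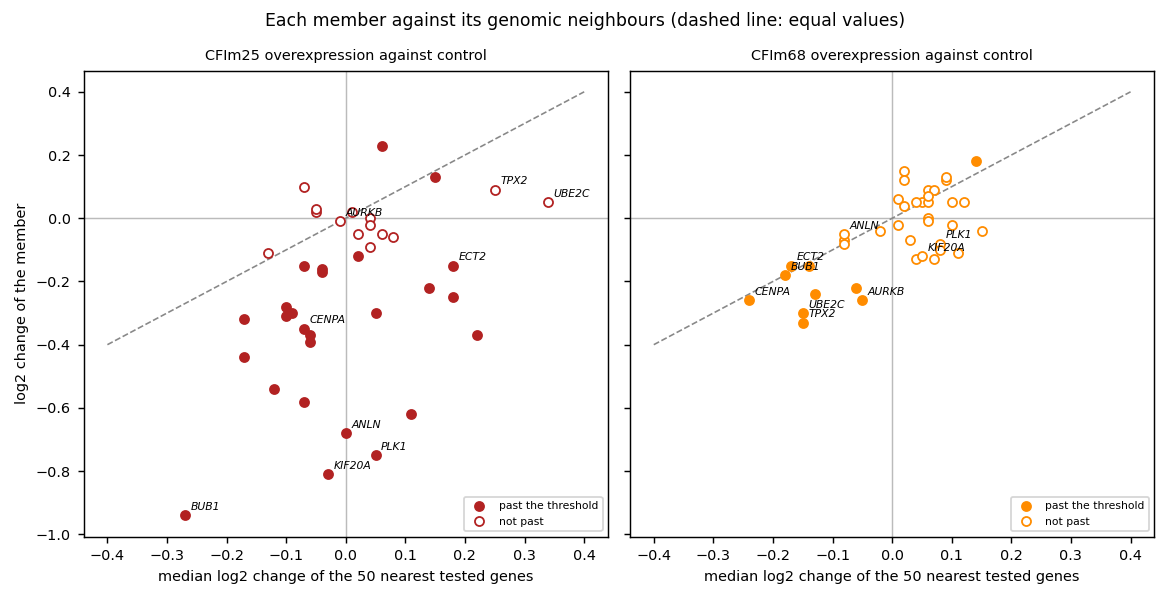
Log2 change of each member (y axis) against the median log2 change of its 50 nearest tested genes on the same chromosome (x axis), for CFIm25 overexpression (left) and CFIm68 overexpression (right), each against control; filled points passed the threshold and the dashed line marks equal values. In CFIm25 overexpression KIF20A, PLK1 and ANLN lie far below the line, and in CFIm68 overexpression 5 of the 10 called members (BUB1, AURKA, CENPA, PRC1 and ECT2) lie within 0.04 of it, BUB1 with -0.18 on both axes, and the other 5 lie 0.11 to 0.20 below it.

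Genes of the same machinery outside the 42 both rose and fell in CFIm25 overexpression, where 27.7% of all tested genes rose and 29.1% fell. Of 28 other kinetochore genes 8 rose (28.6%) and 7 fell (25%), near the share over all genes. Of 23 cohesin and condensin genes 8 rose (34.8%) and 5 fell (21.7%), and of 27 other spindle and cytokinesis genes 9 rose (33.3%) and 10 fell (37%). From the cohesin and condensin list, SMC1A fell (-0.39 ± 0.04) and NCAPH did not pass (-0.09 ± 0.05). The anaphase-promoting complex had 4 higher (23.5%) and 9 lower (52.9%) of 17, with a median of -0.12. ANAPC13, from this list, rose (0.21 ± 0.08). The minus-end motor KIFC1 fell nearly as far as BUB1: it averaged 119.9 ± 7.14 CPM in CFIm25 overexpression and 212 ± 11.8 CPM in CFIm68 overexpression, against 221 ± 4.36 CPM in control (-0.88 ± 0.05, edgeR adjusted p = 7.8e-14). CCNF, which encodes cyclin F, fell by 0.75 ± 0.07 on the log2 scale, whereas the kinase gene NEK9 (0.57 ± 0.05) and FBXO5, which encodes the anaphase-promoting complex inhibitor EMI1 (0.57 ± 0.06), rose. Centrosome and gamma-tubulin genes had 4 higher and 4 lower of 13 (30.8% each), and other mitotic entry kinases and phosphatase regulators 6 higher (42.9%) and 4 lower (28.6%) of 14. DNA replication genes, 40 tested, had 12 higher (30%) and 10 lower (25%) with a median of 0.00, among them ORC5 (0.82 ± 0.07) and RFC3 (0.34 ± 0.05). For the subunits of DREAM and MYB-MuvB, 4 of 12 rose (33.3%) and 5 fell (41.7%).

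In the knockdowns these lists also moved both ways, in unequal numbers for several of them. Over all tested genes 24.4% rose and 23.2% fell in CFIm25 knockdown, and 28.3% rose and 28.1% fell in CFIm68 knockdown. Of the 28 other kinetochore genes, 8 rose (28.6%) and 5 fell (17.9%) in CFIm25 knockdown, and 7 rose (25%) and 11 fell (39.3%) in CFIm68 knockdown. CENPK, a subunit of the constitutive centromere network, averaged 47.8 ± 4.43 CPM in CFIm25 knockdown (n = 2) and 29.4 ± 2.06 CPM in CFIm68 knockdown, against 66.2 ± 1.55 CPM in control (n = 3 each), and SKA3, of the complex that couples kinetochores to microtubules, fell in both (-0.51 ± 0.07 and -0.77 ± 0.06). Centrosome genes had 2 higher (15.4%) and 5 lower (38.5%) of 13 in CFIm25 knockdown and 2 higher (15.4%) and 8 lower (61.5%) in CFIm68 knockdown, including CEP192 (-0.38 ± 0.07 and -0.41 ± 0.06) and PCNT, which encodes pericentrin (-0.42 ± 0.06 and -0.31 ± 0.05). Of 17 genes of the anaphase-promoting complex, 5 rose (29.4%) and 6 fell (35.3%) in CFIm25 knockdown. In CFIm68 knockdown 3 rose (17.6%) and 7 fell (41.2%). ANAPC13 rose in both (0.85 ± 0.08 and 0.53 ± 0.07). The DREAM subunit gene RBL2, which encodes the pocket protein p130, averaged 135 ± 4.58 CPM in CFIm25 knockdown (n = 2) and 89.7 ± 4.02 CPM in CFIm68 knockdown, against 183 ± 11.1 CPM in control (n = 3 each), a change of -0.44 ± 0.06 and -1.03 ± 0.06. Its relative RBL1, which encodes p107, rose in both (0.52 ± 0.07 and 0.55 ± 0.06), as did the microtubule end-binding gene MAPRE1 (0.38 ± 0.06 and 0.61 ± 0.05). Of 12 subunits of DREAM and MYB-MuvB, 3 rose (25%) and 2 fell (16.7%) in CFIm25 knockdown. In CFIm68 knockdown 4 rose (33.3%) and 3 fell (25%). Other mitotic entry kinases and phosphatase regulators had 7 higher (50%) and 4 lower (28.6%) of 14 in CFIm25 knockdown. In CFIm68 knockdown 4 were higher (28.6%) and 5 lower (35.7%). In CFIm68 overexpression RBL1 fell (-0.34 ± 0.07) and RBL2 rose (0.15 ± 0.05). NCAPH fell there too (-0.46 ± 0.06), and SMC1A rose (0.12 ± 0.04). DNA replication genes had 13 higher (32.5%) and 9 lower (22.5%) of 40 in CFIm25 knockdown and 13 higher and 13 lower (32.5% each) in CFIm68 knockdown. Of 23 cohesin and condensin genes, 1 rose (4.35%) and 6 fell (26.1%) in CFIm25 knockdown. In CFIm68 knockdown 3 rose (13%) and 6 fell (26.1%). NCAPH rose in both (0.22 ± 0.06 and 0.27 ± 0.05). Other spindle and cytokinesis genes, 27 tested, had 7 higher (25.9%) and 12 lower (44.4%) in CFIm25 knockdown. In CFIm68 knockdown 8 were higher and 8 lower (29.6% each).

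Counting could also mix overlapping genes. Of the 40 members, 4 overlap a same-strand gene in their exons and 13 overlap an opposite-strand gene, 16 in all. The sources used here do not say whether counting took strand into account, so for those 13 members reads from the partner cannot be told apart. Among the leading members, BUB1 and CCNB1 share no exonic bases with another gene, while PLK1 shares bases with ERN2 and AC008870.3, ANLN with KIAA0895, MAD2L1 with AC108866.1 and HMMR with HMMR-AS1 on the opposite strand.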

How the data were processed

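RNA from 14 HEK 293 libraries was sequenced after TruSeq Stranded mRNA preparation, per the labels' protocols. The deposited values are unnormalized whole-number counts of reads for each gene. Per the submitters' processing notes, the authors used cutadapt 1.16, STAR 2.7.1a and the build hg38. For the assignment of reads to genes, the tool, annotation and strand setting were not given in the sources used here.

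Tests were run in R 4.3.3 with edgeR 4.0.16: filterByExpr (minimum count 10, minimum total 15), TMM scaling, 1 coefficient per group over all 14 libraries, quasi-likelihood tests and Benjamini-Hochberg adjustment over 12080 genes, threshold 0.05. The fit was tested on simulated data. Each group was compared with control, and the knockdowns and the overexpression groups were compared with each other (CFIm68 over CFIm25). The alternatives tried were size factors by median ratio, no filter, at least 1 CPM in at least 3 libraries, a replicate block, DESeq2 1.42.0, limma-voom (limma 3.58.1), the compared groups alone, each library left out and, chosen after seeing the data, medians of 50 neighbouring genes removed as offsets. Replicates differed by more than sampling noise (chi-square per gene 1.79 to 9.08), so none was merged. Members, related lists and tests were chosen with earlier results of these data known. All members could be named, with library values for the 4 higher and 4 lower with the smallest adjusted p in each comparison with control, and for those called in opposite directions. Library values of CDC20, CCNA2 and CDK1 are given beside them, chosen after they were seen. Each related list contributed the 2 members with the smallest adjusted p over the comparisons with control. Coordinates are from GENCODE 29, promoters from RefSeq. Figures used Python 3.11.15, pandas 2.3.3 and matplotlib 3.10.9.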

Additional observations from a re-analysis of the deposited data

Results flagged for a closer look

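MAD2L1 was higher in CFIm25 knockdown and lower in CFIm68 knockdown than in control, and the direct test of CFIm68 against CFIm25 knockdown gave a log2 difference of -0.92 ± 0.07 (edgeR adjusted p = 1.5e-10). The difference was -0.93 with the medians of neighbouring genes removed. PRC1 was higher in CFIm68 overexpression and lower in CFIm25 overexpression than in control, with a direct difference of 0.30 ± 0.04 (edgeR adjusted p = 1.3e-06) and 0.21 with neighbouring genes removed. TOP2A was lower in CFIm68 overexpression and higher in CFIm25 overexpression than in control, with a direct difference of -0.35 ± 0.05 (edgeR adjusted p = 5.3e-07) and -0.16 with neighbouring genes removed. Against control, the calls of PRC1 and TOP2A in CFIm68 overexpression were both lost with neighbouring genes removed (0.07 and -0.14). Groups of 3 libraries or fewer were not examined for outlying libraries.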

How the results depend on the processing

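Members called in the 6 comparisons were 16, 16, 26, 10, 9 and 27 (CFIm25 knockdown, CFIm68 knockdown, CFIm25 overexpression and CFIm68 overexpression against control, CFIm68 against CFIm25 knockdown, CFIm68 against CFIm25 overexpression). They were 16, 16, 27, 9, 10 and 26 by DESeq2 and 17, 16, 26, 10, 10 and 27 by limma-voom. Over all tested genes, same-numbered libraries deviated together with correlations of -0.06 to 0.17. Such values from groups this small cannot exclude a pairing by replicate number. MAD2L1 and HMMR, for example, were highest in replicate 1 of every group, while CDC20 was not. With the replicate number as a block the counts were 17, 17, 27, 13, 11 and 30, and members higher in CFIm68 overexpression were 3, against 1 without the block. That last count was 2 with no filter and 0 with neighbouring medians removed. In CFIm68 against CFIm25 knockdown a fit to those groups alone called 14 members, 5 of them higher. The median change in CFIm68 knockdown, 0.02, was 0.02 with at least 1 CPM required and -0.01 with neighbouring medians removed. With neighbouring medians removed UBE2C stood at 0.16 in CFIm68 against CFIm25 overexpression, BUB1 at 0.02 and ECT2 at 0.00 in CFIm68 overexpression, each of the other sign or at 0 and not past. The cause was not tested.

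With 1 library left out, members called higher ranged from 1 to 3 in CFIm25 overexpression (1 without CFIm25 overexpression replicate 1 or control replicate 3, 3 without CFIm25 overexpression replicate 3), from 4 (without control replicate 2) to 6 in CFIm68 knockdown, and from 1 to 3 (without CFIm68 overexpression replicate 3) in CFIm68 overexpression. The median in CFIm68 knockdown ranged from 0.00 to 0.03. In CFIm68 against CFIm25 knockdown, members called ranged from 2 to 8, higher from 0 to 4, lower from 2 to 5, and all tested genes called from 1465 to 2384, each lowest without CFIm25 knockdown replicate 1, which leaves 1 library assumed to vary like the other groups. Calls held under every alternative for 9 of 16, 8 of 16, 20 of 26, 2 of 10, 2 of 9 and 20 of 27 members in the order above. Depth limits the members with the fewest counts most: BIRC5 and CENPA had SEs of 0.09 to 0.10. The 2 libraries of CFIm25 knockdown limit that group's precision.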
